A study of Mus musculus with 8 samples.

Results

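Hyaluronan is a long sugar polymer of the pericellular matrix, built at the plasma membrane by the hyaluronan synthases Has1, Has2 and Has3 from UDP-glucuronic acid, which the dehydrogenase Ugdh makes, and UDP-N-acetylglucosamine. Cells hold it through the receptor Cd44, the secreted protein Tnfaip6 (TSG-6) binds it and links it to other matrix proteins, and the hyaluronidases Hyal1 and Hyal2 cut it. Mesothelial cells coat the peritoneum with hyaluronan, and Cd44 on ovarian cancer cells can bind that coat. These 8 genes, chosen by their symbols, were followed in RNA sequencing of ID8 IP2 cells among 23284 gene symbols in all.

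ID8 IP2 is a mouse ovarian surface epithelial line that forms peritoneal tumors, and all its lines here also carried a luciferase-mCherry lentivirus. Each of Sets 1 to 4 paired a Notch3IC line, infected with a lentivirus for the HA-tagged intracellular domain of Notch3 (codons 1664 to 2318) with an IRES-GFP, and a Control line infected with the empty pCCL vector. This gave 4 libraries per group, each from 1 infected line grown in culture, and the Notch3IC vector carried GFP where the empty one is described without it. The promoter that drives the insert is not given in the sources used here. According to the study's methods, testing done afterwards pointed to mycoplasma in all ID8 IP2 lines. Reads counted on genes numbered 19013578 to 28208072 in the Control libraries (median 24255880) and 15524262 to 27107061 in Notch3IC (median 24162245.5). Values below are normalized counts, that is, read counts scaled by TMM to a common library size, unless a level per length is named, and the values of a group follow the order of Sets 1 to 4.

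The labels were first checked against Notch3 itself. Notch3 had 38.7, 40.6, 70.8 and 42.0 normalized counts in Control and 4321, 467, 9220 and 5842 in Notch3IC. Every Notch3IC library was above every Control library, and Notch3IC Set 2 was the lowest of its group. The Notch target genes Hey1, Heyl and Nrarp were called higher with it. The cell type was checked against markers of mesothelium and ovarian surface. Of 9 such genes listed in the files, Krt7 alone was below the expression filter. Krt7, named after its values were seen, had 5, 2, 46 and 7 counts in Control and 1, 1, 2 and 2 in Notch3IC. The other 8 passed the filter. In Control they were led per length by Upk3b, the gene of a uroplakin of mesothelial cells, at 265 RPKM (reads per kilobase of exon at a common library size, computed here), then Krt19 (103, named after its values were seen), Upk1b (88) and Wt1, the Wilms tumor transcription factor (85.3). These are group means, and Krt19 (29.4 to 172), Upk1b (56.4 to 118) and Wt1 (43.7 to 114) overlapped between Control libraries. Of the epithelial junction genes, Cdh1 (E-cadherin) had 428 ± 241 normalized counts in Control (SD, n = 4). Cldn3 had 6.20 ± 3.69 and Epcam, named after its values were seen, 7.76 ± 1.60, and neither passed the expression filter. Summed over the 6 junction genes, the level was 1.49, 6.20, 4.05 and 6.49 RPKM in Control and 0.836, 5.19, 4.14 and 3.02 in Notch3IC.

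The comparison asked which of these genes differed between Notch3IC and Control. The quasi-likelihood test of edgeR was run over 12430 genes, with condition as the only term. Calls needed an adjusted p below 0.1 (Benjamini-Hochberg over all genes tested) together with a log2 change, Notch3IC over Control, of 1 or more in size, and SE is the standard error of that change. Of the 8 hyaluronan genes, 7 had enough reads to be tested. Has2 alone was called higher, and the other 6 were not called. Among all genes tested, 3.4% were called higher and 0.74% lower. Has2 was also the 1 gene called higher with DESeq2, where 5.07% of genes were called higher and 1.38% lower, and with the set as a block in edgeR, where 5.19% were called higher and 2.53% lower. The count of hyaluronan genes called lower was 0 with edgeR and 0 with DESeq2. At an unadjusted p below 0.05, edgeR with condition alone had 1 of the 7 higher (Has2) and 0 lower, against 11.8% and 6.65% of all genes tested. Besides Has2, Tnfaip6 was lower at that level with DESeq2 (unadjusted p = 0.0258) and with the block (0.00497). With the block Cd44 was also higher (unadjusted p = 0.000459). In either direction, 2863 genes were below 0.05 with DESeq2 and 4349 of the 12430 with the block. The median log2 change was -0.08 over the 7 tested genes and -0.01 over all genes tested. A gene was compared with its own Control, so the count speaks of single genes and not of the list.

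**Figure D1:**
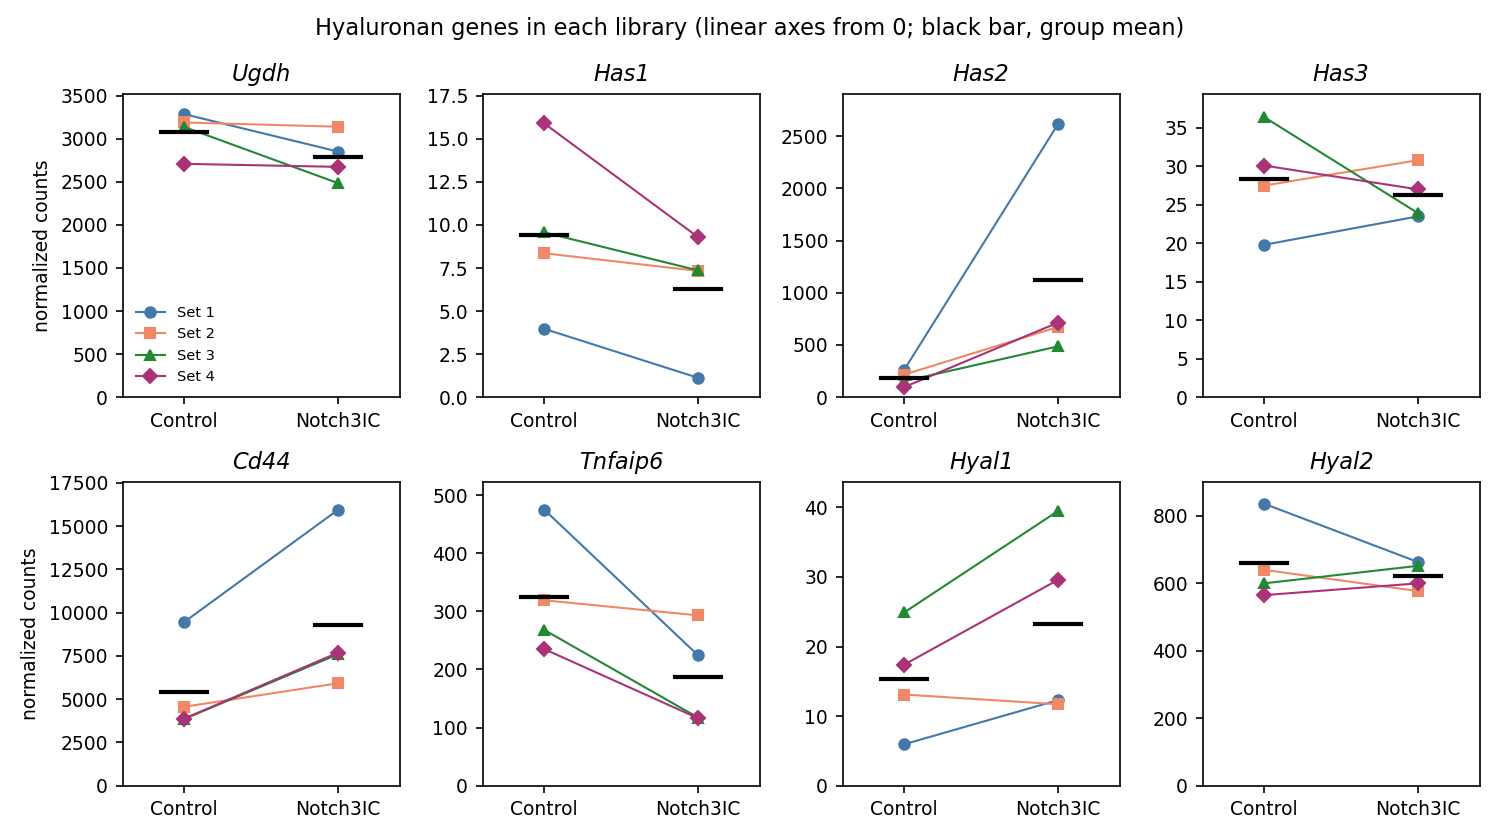
Normalized counts of the 8 genes (linear axes from 0) in the Control and Notch3IC libraries, with a line joining the libraries of each set and a black bar at the group mean. Has2 was the 1 gene whose Notch3IC libraries (487 to 2618) all lay above its Control libraries (96.7 to 262).

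Has2, the main hyaluronan synthase of mesenchymal and mesothelial cells, rose in Notch3IC. Control libraries had 262, 216, 153 and 96.7 normalized counts of it, and Notch3IC libraries 2618, 673, 487 and 715. All Notch3IC libraries were above all Control libraries, and the Notch3IC library of Set 1 was far above the rest. In 7.08% of all genes tested the 4 Notch3IC libraries likewise lay above the 4 Control libraries. The means were 182 ± 72.2 and 1123 ± 1002 normalized counts (SD, n = 4), 6.17-fold apart, with a fitted log2 change of 2.63 ± 0.59 (SE, adjusted p = 0.0497). Ranked from the largest increase down, this log2 change was the 150th of the 12430. RNA from a whole culture does not tell more cells with Has2 from more Has2 RNA per cell.

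Within Sets 1 to 4 the log2 ratio of Has2 was 3.32, 1.64, 1.67 and 2.88. The rise was therefore present in each set, with the smaller ratios in Sets 2 and 3. The call ended when Control Set 3 (adjusted p = 0.153), Control Set 4 (0.161) or Notch3IC Set 4 (0.116) was left out, and when both libraries of Set 3 (0.246) or Set 4 (0.351) were. The log2 change in these 5 fits was between 2.41 and 2.81. Over all genes, edgeR with condition alone called 1 higher without Set 3 and 0 without Set 4. Notch3 itself was not called there (adjusted p = 0.215 and 0.221). Loss of a call without Set 3 or Set 4 is therefore not particular to Has2, nor to the genes below. Without the high Notch3IC library of Set 1 it was 1.79 and the call held (adjusted p = 0.0545). The block gave 2.39 ± 0.34 (SE, adjusted p = 0.0269), and with it the call ended without Set 1 (0.122), Set 3 (0.118) or Set 4 (0.129). It held with the block and Set 2 left out (log2 change 2.67, adjusted p = 0.00334).

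Has3, a synthase with a separate gene, was low in both groups. It had 28.4 ± 6.85 normalized counts in Control and 26.3 ± 3.37 in Notch3IC (SD, n = 4; log2 change -0.12 ± 0.26 SE, adjusted p = 0.864). The groups overlapped, and the ratio was above 0 in Sets 1 and 2 and below 0 in Sets 3 and 4. Has1 was the scarcest of the synthases. It had 4, 7, 10 and 20 reads in Control and 1, 5, 8 and 11 in Notch3IC, too few to pass the expression filter. Has1 was lower in Notch3IC in each of the 4 sets, at counts where DESeq2, which tested it, gave a log2 change of -0.61 ± 0.73 (SE, adjusted p = 0.727). Of the 4138 windows of 100 bases, the read length, in annotated Has2 transcripts, 0 occurred in Has1 or Has3. An antisense gene, Has2os, overlaps 4.3% of Has2 exon bases, and the opposite-strand gene Chtf8 overlaps 5.52% of those of Has3, in the GENCODE annotation. Whether the libraries kept strand is not given in the sources used here.

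Scaled by exon length, Has2 was the leading synthase transcript in every library. The share of Has2 in the summed RPKM of Has1, Has2 and Has3 was 93.9%, 89.2%, 82.2% and 73.5% in Control and 99.4%, 96.1%, 95.5% and 96.4% in Notch3IC. Every Notch3IC share was above every Control share. Has3 supplied 10.1 ± 4.82% of the sum in Control and 2.26 ± 1.15% in Notch3IC (SD, n = 4). The summed level per length was 2.12 ± 0.652 in Control and 11.6 ± 10.1 in Notch3IC. Set 1 carried the Notch3IC mean at 26.6, where Sets 2 to 4 had 7.08, 5.16 and 7.5. These shares rest on the same Has2 counts as the test above.

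**Figure D2:**
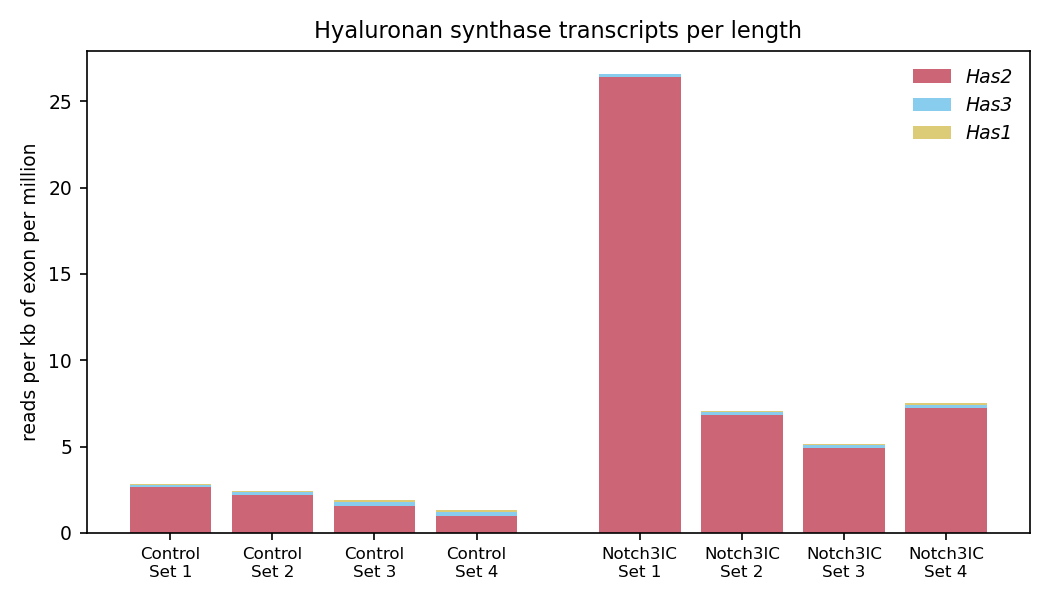
Level per length of the 3 synthase transcripts (RPKM, stacked bars) in each library, with Control on the left and Notch3IC on the right. The summed level was 1.33 to 2.82 in Control and 5.16 to 26.6 in Notch3IC, and Has2 (red) filled most of every bar.

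Ugdh, which supplies UDP-glucuronic acid, was abundant and not called. It had 3286, 3189, 3137 and 2709 normalized counts in Control and 2851, 3140, 2484 and 2674 in Notch3IC. The groups overlapped. Its log2 change was -0.14 ± 0.10 (SE, adjusted p = 0.511), and its ratio was below 0 in all 4 sets, at -0.02 in Sets 2 and 4. In 19.4% of all genes tested the ratio was below 0 in every set.

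Cd44, the main cell surface receptor for hyaluronan, was the most abundant of the 8. It had 9462, 4561, 3855 and 3877 normalized counts in Control and 15954, 5921, 7602 and 7693 in Notch3IC. Both libraries of Set 1 were the highest of their groups, and the Control library of Set 1 lay above 3 of the 4 Notch3IC libraries, so the groups overlapped. The means were 5439 ± 2702 and 9293 ± 4515 (SD, n = 4), with a log2 change of 0.77 ± 0.39 (SE, adjusted p = 0.343), and Cd44 was not called.

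The difference was more even within sets, where the log2 ratio of Cd44 was 0.75, 0.38, 0.98 and 0.99. In 21% of all genes tested the ratio was above 0 in every set. With condition alone, leaving out Control Set 1 gave a log2 change of 1.18 (adjusted p = 0.102) and leaving out Notch3IC Set 1 gave 0.39 (0.514). When edgeR was given the set as a block, its log2 change was 0.78 ± 0.11 (SE, adjusted p = 0.0262), past the threshold on p and short of the limit of 1 on log2 change. In that fit 14.9% of all genes tested were higher at an adjusted p below 0.1 with no limit on size. Leaving out Set 1 gave 0.79 (adjusted p = 0.0653) with condition alone and 0.78 (0.126) with the block. The block also gave adjusted p values of 0.119 without Set 3 and 0.103 without Set 4. Without Set 2 it gave a log2 change of 0.91 (adjusted p = 0.00081), still short of the limit on size. The counts are per gene and do not show which Cd44 splice forms were present.

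Tnfaip6, the hyaluronan-binding protein TSG-6 that inflammatory signals induce, had a mean below that of Control. Control libraries had 475, 319, 268 and 235 normalized counts of Tnfaip6, and Notch3IC libraries 224, 293, 117 and 116. The groups overlapped through the Notch3IC library of Set 2. The log2 change was -0.80 ± 0.36 (SE, adjusted p = 0.283), and Tnfaip6 was not called. Within sets the log2 ratio was -1.08, -0.12, -1.19 and -1.02, close to 0 in Set 2 alone. With the block the log2 change was -0.86 ± 0.20 (SE, adjusted p = 0.0452), again short of the limit on size, where 12.1% of all genes tested were lower at an adjusted p below 0.1. Without the Notch3IC library of Set 2 it was called lower (log2 change -1.10, adjusted p = 0.0880), as it was with the block and Set 2 left out (-1.10, adjusted p = 0.00173). With condition alone and both libraries of Set 2 left out it was not called (-1.10, adjusted p = 0.149). With the block and any 1 of Sets 1, 3 or 4 left out, its adjusted p was 0.168 to 0.185.

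Promoter sequences from RefSeq (build GRCm38.p6) were matched for 6 of the 8 genes, not for Has2 and Has3. Those of Cd44 and Tnfaip6, the pair past the threshold on p with the block and in opposite directions, are shown as the 250 bases before the annotated start, 5′ to 3′ on the gene's strand. Capitals mark TGGGAA or its reverse complement TTCCCA, the core of the sequence that Rbpj, the DNA-binding partner of the Notch intracellular domain, is known to bind. The Cd44 window is chr2:102901666-102901915 on the minus strand and the Tnfaip6 window is chr2:52037863-52038112 on the plus strand. The counts were made on mm9, and these positions belong to the sequence table alone.
Cd44: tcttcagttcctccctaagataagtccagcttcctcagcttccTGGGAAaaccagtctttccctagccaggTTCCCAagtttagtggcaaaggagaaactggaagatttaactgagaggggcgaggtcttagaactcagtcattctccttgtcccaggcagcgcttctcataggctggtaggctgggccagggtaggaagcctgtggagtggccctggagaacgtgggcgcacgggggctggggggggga
Tnfaip6: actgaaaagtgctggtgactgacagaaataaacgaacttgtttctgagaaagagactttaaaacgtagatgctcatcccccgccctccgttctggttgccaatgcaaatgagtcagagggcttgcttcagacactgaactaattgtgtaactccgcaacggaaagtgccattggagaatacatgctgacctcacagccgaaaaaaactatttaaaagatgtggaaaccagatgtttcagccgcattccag
The Cd44 window held the letters 2 times, beginning 207 and 179 bases before the start, and the Tnfaip6 window 0 times. The windows of Has1, Hyal1, Hyal2 and Ugdh held them 0 times. Of 32851 such windows over all genes, 21.6% held TGGGAA on either strand. The longer form GTGGGAA (reverse complement TTCCCAC) was in none of the 6 windows and in 5.42% of all. A match of letters is not a measured binding site.

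Of Hyal1 and Hyal2, the main transcript was Hyal2, which is anchored to the cell surface. Hyal2 had 836, 640, 600 and 565 normalized counts in Control and 663, 577, 652 and 600 in Notch3IC, with a log2 change of -0.08 ± 0.14 (SE, adjusted p = 0.810). Its ratio was below 0 in Sets 1 and 2 and above 0 in Sets 3 and 4. Hyal1, the lysosomal hyaluronidase, had 5.95 to 24.9 normalized counts in Control and 11.7 to 39.5 in Notch3IC. The groups overlapped, and its log2 change was 0.61 ± 0.53 (SE, adjusted p = 0.605). The gene Naa80 shares 50.8% of the annotated exon bases of Hyal1 on the same strand, so reads of these 2 genes cannot be told apart there. Per length, Hyal2 made up 97.9 ± 1.23% of the sum of Hyal1 and Hyal2 in Control and 96.9 ± 1.72% in Notch3IC (SD, n = 4).

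**Figure D3:**
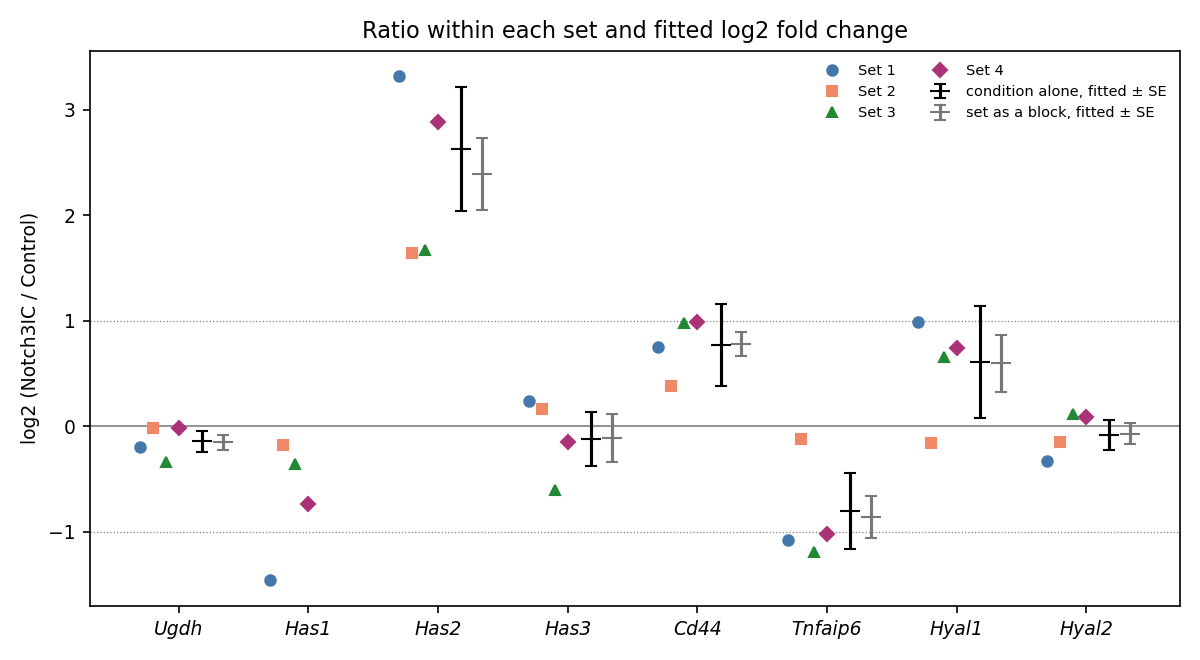
Log2 ratio of Notch3IC to Control (vertical axis) for each gene within Sets 1 to 4 (colored symbols), with the fitted log2 change ± its standard error from edgeR with condition alone (black) and with the set as a block (grey), and dotted lines at -1 and 1. Has2 was above 1 in every set, Cd44 was between 0.38 and 0.99, Tnfaip6 was near 0 in Set 2 and near -1 in the others. Has1 was not tested with edgeR.

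By group mean of the level per length, Cd44 and Ugdh led in both groups, while Has2 was above Ugdh (18.1) in Notch3IC Set 1. In Control, RPKM averaged 34.4 for Cd44, 19.5 for Ugdh, 8.59 for Hyal2, 8.13 for Tnfaip6 and 1.84 for Has2. Has3, Hyal1 and Has1 followed at 0.191, 0.174 and 0.0895. Hyal2 and Tnfaip6 overlapped between Control libraries (7.36 to 10.9 and 5.90 to 11.9), as did Has3, Hyal1 and Has1 among themselves. In Notch3IC, Cd44 averaged 58.8, Ugdh 17.7, Hyal2 8.11 and Tnfaip6 4.69. Has2 had 26.5, 6.80, 4.93 and 7.23 RPKM there, with a mean of 11.4 that lies above Hyal2 through Set 1 alone. In Sets 2 to 4 Has2 was below Hyal2 (7.51, 8.48 and 7.81), and in Set 2 it was also below Tnfaip6 (7.34). Without Set 1 the mean of Has2 in Notch3IC was 6.32 and that of Hyal2 7.93.

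Around these genes, 47 others of hyaluronan metabolism and binding were read in the same fit. Of these 31 passed the expression filter, 2 were called higher and 0 lower, against 3.4% and 0.74% of all genes tested. The genes called higher were Ptx3 and Mmp14. With the block 2 were also called lower, Gfpt2 and Ezr, and DESeq2 called the same 2 lower. At an unadjusted p below 0.05 in edgeR with condition alone, 3 of the 31 were higher and 3 lower, where 11.8% and 6.65% of all genes tested were. The median log2 change of the 31 was 0.00.

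Ptx3 encodes pentraxin 3, which joins with Tnfaip6 in building hyaluronan-rich matrix. It had 646, 1005, 474 and 561 normalized counts in Control and 1519, 1836, 1033 and 1177 in Notch3IC, with no overlap. It rose with a log2 change of 1.05 ± 0.26 (SE, adjusted p = 0.0716), and its log2 ratios of 1.23, 0.87, 1.12 and 1.07 were close to each other. The call ended with any 1 of 7 single libraries left out (the exception was the Control library of Set 2), at log2 changes of 0.89 to 1.17. It also ended without Set 1, 3 or 4. With the block it was 1.07 ± 0.08 (SE, adjusted p = 0.00782). Vcan, the large hyaluronan-binding proteoglycan versican, had a log2 change of -0.45 ± 0.31 (SE, adjusted p = 0.497) and was not called. Of the 15 binding-matrix genes, 10 were too low to be tested with edgeR, and Ncan and Hapln2 had 0 counts in every library.

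Mmp14 encodes a membrane protease able to shed Cd44. It rose from 6786, 5956, 5079 and 4517 normalized counts in the Control libraries to 10945, 7004, 19344 and 16552 in Notch3IC (log2 change 1.27 ± 0.30 SE, adjusted p = 0.0604). The groups did not overlap, with the larger log2 ratios in Set 3 (1.93) and Set 4 (1.87) and the smaller in Set 1 (0.69) and Set 2 (0.23). Its adjusted p was 0.108 to 0.191 without any 1 of 5 libraries (Control Sets 2, 3 and 4, Notch3IC Sets 3 and 4). Without Set 3 it was 0.391 and without Set 4 it was 0.503.

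Ezrin and moesin link Cd44 to the actin cortex, and their genes were the most abundant per length of the 47. Ezr had 13700, 23876, 29710 and 28914 normalized counts in Control and 4267, 16815, 8220 and 7958 in Notch3IC. It was lower in each set, while the Control library of Set 1 was below the Notch3IC library of Set 2. Its log2 change was -1.37 ± 0.41 (SE, adjusted p = 0.121), and with the block it fell by 1.48 on the log2 scale (SE 0.25, adjusted p = 0.0297, and up to 0.159 with a set also left out). With condition alone it was called lower without Control Set 1 (-1.56, adjusted p = 0.0832), Notch3IC Set 2 (-1.82, 0.0158), both libraries of Set 1 (-1.33, 0.0826) or both of Set 2 (-1.82, 0.0412). Msn (moesin) was not called (log2 change 0.13 ± 0.31 SE, adjusted p = 0.872).

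None of 12 genes of UDP-sugar supply was called by edgeR with condition alone, and Gfpt2 was called lower with the block and with DESeq2. The most abundant were Ugp2, which makes UDP-glucose (log2 change 0.03 ± 0.20 SE, adjusted p = 0.962), and Pgm2, a phosphoglucomutase (-0.29 ± 0.23 SE, adjusted p = 0.558). Gfpt2, a first enzyme of the hexosamine branch and named after its values were seen, had 1637 ± 592 normalized counts in Control and 764 ± 500 in Notch3IC (SD, n = 4; log2 change -1.10 ± 0.44 SE, adjusted p = 0.228). Its calls rest on a log2 change of -1.20 ± 0.26 (SE, adjusted p = 0.0432) with the block and -1.12 ± 0.44 (SE, adjusted p = 0.0858) with DESeq2. It was lower in Notch3IC in 4 of 4 sets.

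Of 5 degradation genes tested besides the hyaluronidases above, none was called. Hexa, a subunit of the lysosomal hexosaminidases, had a log2 change of 0.24 ± 0.16 (SE, adjusted p = 0.469). Tmem2, a cell surface hyaluronidase, had 5777 to 6153 normalized counts in the 4 Control libraries and 4154 to 5466 in the 4 Notch3IC libraries, without overlap (log2 change -0.32 ± 0.11 SE, adjusted p = 0.170). A like separation downward was seen in 3.75% of all genes tested. Gusb, the lysosomal beta-glucuronidase and named after its values were seen, was separated upward, as were 7.08% of genes, at 1797 to 2286 in Control and 2430 to 2733 in Notch3IC (log2 change 0.32 ± 0.10 SE, adjusted p = 0.134). Hyal4 and Spam1 had 0 counts in every library. Of the other receptors, Hmmr (RHAMM, also a spindle protein) had a log2 change of 0.00 ± 0.14 (SE, adjusted p = 0.996) and Layn (layilin) 0.40 ± 0.24 (SE, adjusted p = 0.416). Lyve1, the lymphatic receptor, had 1 count in 1 Control library and 0 elsewhere.

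**Figure D4:**
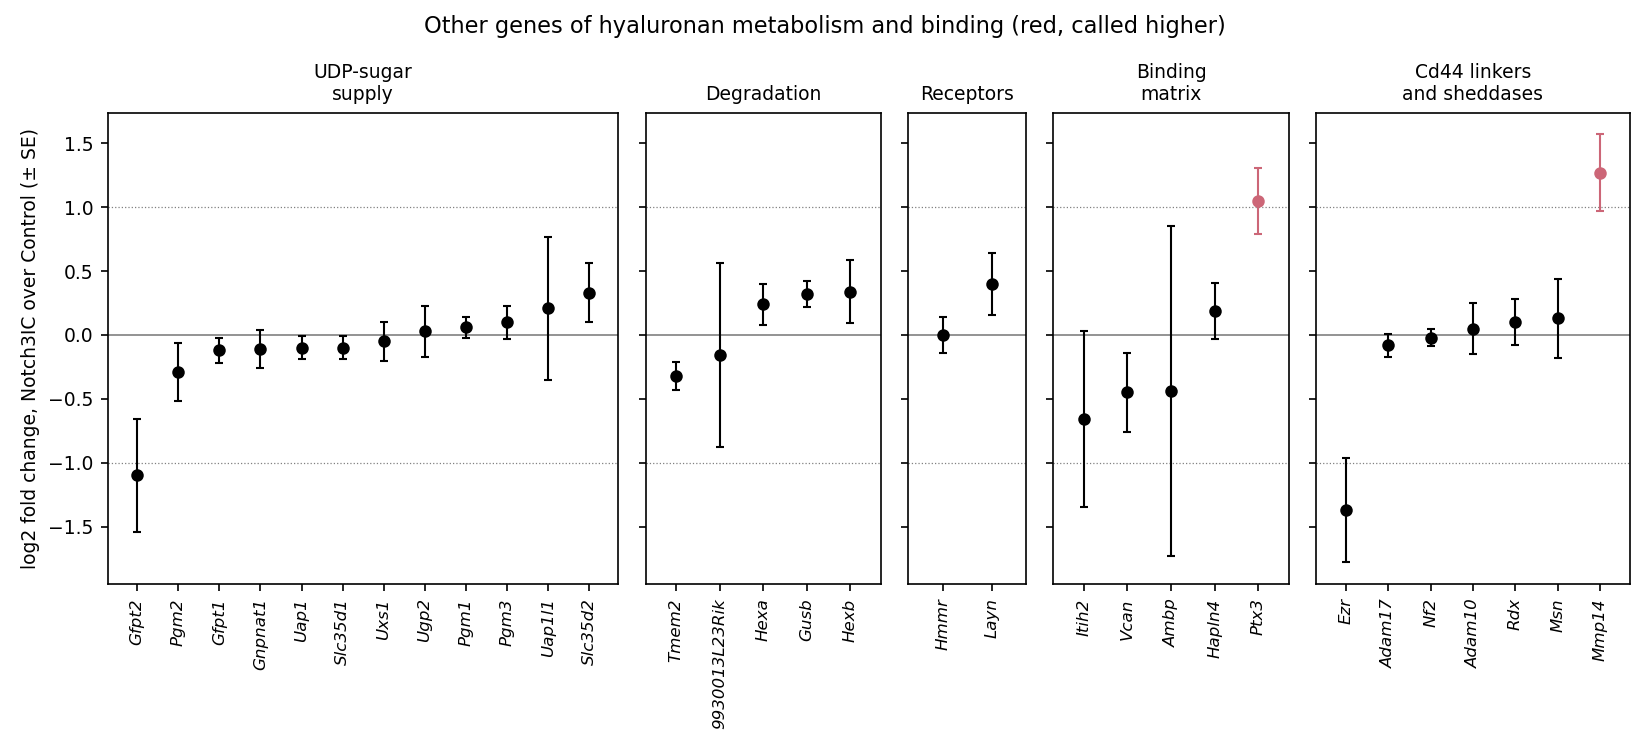
Log2 change of Notch3IC over Control ± its standard error (vertical axis, edgeR with condition alone) for the 31 tested genes among 47 others of the pathway, by role, with dotted lines at -1 and 1. Ptx3 (1.05) and Mmp14 (1.27) in red were called higher, and Ezr (-1.37) and Gfpt2 (-1.10) lay past the fold limit without being called in this fit.

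Markers of other cell types and of the surface itself were read beside these results. Cd44 and Ptx3 are also expressed by leukocytes, and the pan-leukocyte gene Ptprc had 0 counts in 7 libraries and 2 counts in the Notch3IC library of Set 1, while Emr1 and Cd3e had 0 in all 8. Of 10 leukocyte genes 2 were tested with edgeR. Cd68, the most abundant, was not called (log2 change -0.40 ± 0.35 SE, adjusted p = 0.610), and Csf1r was called higher at 7 to 10 counts in Control and 10 to 36 in Notch3IC (log2 change 1.52 ± 0.38 SE, adjusted p = 0.0719), a call lost without any 1 of 6 libraries (adjusted p up to 0.228). The summed leukocyte level per length was 1.72, 2.81, 2.95 and 4.19 in Control and 1.67, 2.54, 2.55 and 3.68 in Notch3IC. Most of this sum was Cd68 (mean 2.76 in Control and 2.08 in Notch3IC), which was lower in Notch3IC in 4 of 4 sets. Lyz2 and Cd79a, named after their values were seen and too low to be tested with edgeR, were higher in 4 of 4. Of 6 endothelial genes, Pecam1 (log2 change 0.60, adjusted p = 0.487) and Kdr (0.51, adjusted p = 0.679) were tested and not called, and the summed level was at most 0.296 per length in any library.

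Of the 8 mesothelial and ovarian surface markers tested, Msln and Upk1b were called lower, where 0.74% of all genes tested were. All 8 had log2 changes below 0 (median -1.68), while 6020 of the 12430 genes tested were above 0 (median -0.01). Msln, the gene of mesothelin, fell from 2349 ± 1152 to 389 ± 290 normalized counts (SD, n = 4; log2 change -2.60 ± 0.63 SE, adjusted p = 0.0625), and Upk1b from 4289 ± 1322 to 943 ± 784 (log2 change -2.19 ± 0.56 SE, adjusted p = 0.0762). Leaving out any 1 of the 4 libraries of Sets 3 and 4 ended both calls (adjusted p of 0.162 to 0.232), and leaving out Control Set 2 ended that of Upk1b (0.114). Wt1 was not called with condition alone (log2 change -0.80, adjusted p = 0.283), nor was Upk3b (-1.72, adjusted p = 0.220), which was called lower with the block (-1.98, adjusted p = 0.0319), with DESeq2 (-1.73, 0.0467) and with condition alone when Set 1 was left out (-1.64, 0.0653). With the block 5 of the 8 were called lower, where 2.53% of all genes tested were. Of these, Msln, Upk1b and Upk3b each lost the block call when Set 1, 3 or 4 was also left out (adjusted p of 0.126 to 0.172). The summed level per length of the list, in which Upk3b was the most abundant, was 363, 593, 977 and 972 in Control and 102, 364, 349 and 264 in Notch3IC.

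Of 5 fibroblast and pericyte markers tested, Pdgfrb (log2 change 5.99 ± 0.83 SE, adjusted p = 0.0169) and Cspg4 (4.20 ± 0.57 SE, adjusted p = 0.0169) were called higher, each in 4 of 4 sets, where 3.4% of all genes tested were called higher. Neither was called without Set 3 (adjusted p = 0.215 for both) or without Set 4 (0.221 for both). The summed level of the list was 671, 308, 217 and 120 per length in Control and 1487, 419, 581 and 432 in Notch3IC. Acta2, smooth muscle actin and the most abundant of them, was highest in Set 1 in both groups (33464 normalized counts in Control and 73807 in Notch3IC) and was not called with condition alone (log2 change 1.24 ± 0.79 SE, adjusted p = 0.462). That log2 change was 0.43 without Notch3IC Set 1 (adjusted p = 0.756) and 2.20 without Control Set 1 (0.139). With the block Acta2 was called higher (log2 change 1.45 ± 0.28 SE, adjusted p = 0.0362), with ratios of 1.14, 0.64, 1.69 and 2.34 in the sets, and that call ended without Set 1 (0.131), Set 3 (0.174) or Set 4 (0.114). By group mean Dcn, the small proteoglycan decorin, was next in abundance in Control (43.4 RPKM) and lay below Pdgfrb in Notch3IC (31.4 and 44.1). Single libraries overlapped, with Dcn at 7.41 to 63.3 and Pdgfra at 9.63 to 33.5 in Control. In Notch3IC, Dcn had 4.22 to 47.3 and Pdgfrb 14.4 to 74.4. Dcn was not called (log2 change -0.47 ± 0.76 SE, adjusted p = 0.809, and -0.53 ± 0.08 SE, adjusted p = 0.0275, with the block, short of the limit on size). Thy1, Lum and Rgs5 were too low to be tested with edgeR. Rgs5, a pericyte gene named after its values were seen, had 1, 2, 3 and 4 counts in Control and 18, 3, 68 and 60 in Notch3IC, and DESeq2 called it higher (log2 change 3.85 ± 0.87 SE, adjusted p = 0.00037). The part of such differences in cell state, or of the Set 1 lines, in the Has2 and Cd44 values was not tested.

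The genes whose profiles were nearest to that of Has2 over the 8 libraries were then sought among 11039 other genes with at least 50 normalized counts on average. Likeness was the root mean square difference of log2 normalized counts, each gene centred on its own mean. Angptl2, a secreted angiopoietin-like protein, was nearest at 0.42, then Peg10, an imprinted gene derived from a retrotransposon, at 0.49 and Serpinf1 (PEDF, a secreted serpin) at 0.49, where the median over all genes was 1.42. Being chosen for a profile like that of Has2 over the same libraries, they share its direction by that choice. Their log2 changes were 2.13 for Angptl2 (standard error 0.59, adjusted p = 0.0985), 2.36 for Peg10 (0.32, adjusted p = 0.0169) and 1.70 for Serpinf1 (0.40, adjusted p = 0.0604). All were called, and Peg10 kept its call with any 1 library left out, with adjusted p values up to 0.0854, and lost it without Set 3 (0.215) or Set 4 (0.221). Angptl2 lost its call without any 1 of 6 libraries, those of Sets 3 and 4 among them, and Serpinf1 without any 1 of 5. The call of Angptl2 also ended without Set 2 (adjusted p = 0.113), Set 3 (0.378) or Set 4 (0.538). It ended too with at least 10 counts required in every library (0.103).

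**Figure D5:**
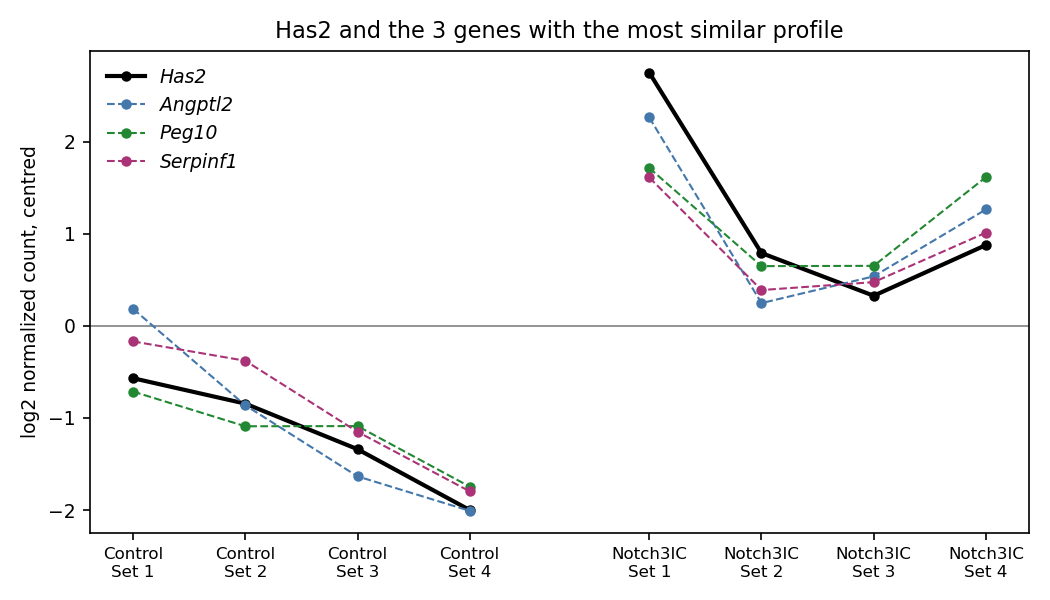
Log2 normalized counts centred on each gene's mean over the 8 libraries (vertical axis) for Has2 (black) and the genes nearest to it in profile, by library (lines only join the points of a gene, and the sets have no order). Each was lowest in the Control library of Set 4 (-1.75 to -2.01) and highest in the Notch3IC library of Set 1 (1.61 to 2.75), as the choice by likeness favors.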

How the data were processed

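Poly-A RNA of the 8 lines was read single-end. The authors deposited raw counts, whole numbers of reads for each gene symbol, with a table for every library. The submitters' processing notes name TopHat, Cufflinks, DESeq and mm9, and their versions, the annotation and the strandedness are not given in the sources used here. Counts were tested with edgeR 4.0.16 in R 4.3.3 (TMM, filterByExpr by condition, robust quasi-likelihood fit), with DESeq2 1.42.0 as an alternative to it. Standard errors are the log2 change over the square root of F. Normalized counts are counts over the TMM-scaled library size times the mean library size, and set ratios add 0.5 to each value and have no replicate check. Exon lengths, overlaps and transcripts are from GENCODE M21 (GRCm38) through symbols, 22804 of 23284 matched. Figures were drawn with Matplotlib 3.10.9.

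The sets were separate infections, and the p values describe the spread between these lines. Each set is a matched pair by the study's description, and over genes, its libraries departed from the group means together (Pearson's r 0.804, 0.398, 0.565 and 0.409 by set), while libraries of different sets gave -0.501 to 0.372. Departures within a group sum to 0, so positive values within sets tend to bring those between sets below 0. The study names no set term, so condition alone is the main fit and the block an alternative. The biological coefficient of variation was 26.3% with condition alone and 14.1% with the block. The members, lists and tests were chosen with earlier results of these data known. The genes named were the 8 members, each called gene of the other lists with the 2 most abundant per length of each list over all 8 libraries, and the 3 nearest in profile to each called member, besides a few genes named after their values were seen or because they had 0 or almost no counts. Cemip was listed as 9930013L23Rik, and Muc16 is not analysed here. The test was tried on simulated counts first. There it called 31.6% of genes given a log2 change of 1, the limit on size itself, and 92.8% of those given 2. Lack of a call alone therefore does not exclude a log2 change near 1. The alternatives were other normalizations, filters, thresholds and tools, the block, and leaving out each library or set. The block with a set left out was added after seeing the data, as were set ratios scaled by library totals.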

Additional observations from a re-analysis of the deposited data

Results flagged for a closer look

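Lone values were sought among the read totals and most of the named genes, in 82 groups of 4. Genes named after their values were seen, or for having almost no counts, were left out, as was Pdgfra. Of the 82 groups, 9 had a lone value. That is a value whose gap to its neighbor, as a share of the range, passed Dixon's 95% critical value. By chance about 1 in 20 groups would have one. For Has2 it was Notch3IC Set 1 at 2618 normalized counts, where Sets 2 to 4 had 487 to 715. Cd44 in the Control library of Set 1 had 9462, against 3855 to 4561. Msn in Set 1 had 24598 in Control, against 12676 to 13305, and 27989 in Notch3IC, against 13053 to 14950. Acta2 in the Notch3IC library of Set 1 had 73807, against 14483 to 22564, and Kdr there had 24.6, against 8.45 to 11. Ugp2 in the Control library of Set 1 had 3266, against 5025 to 5351. Outside Set 1, Hexa in the Control library of Set 2 had 2538, against 1996 to 2080, and Notch3 in the Control library of Set 3 had 70.8, against 38.7 to 42.0. Gfpt2 was not in the search. It had 1506 in the Notch3IC library of Set 2, against 429 to 598, a gap past the same critical value. Genes of 1 library are not independent of each other.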

How the results depend on the processing

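Has2 stayed called higher under DESeq2, the block, RLE, upper quartiles, plain library totals, no filter, at least 10 counts in every library and an adjusted p under 0.05, with log2 changes of 2.39 to 2.63. With 1 library left out the number of hyaluronan genes called higher was 0 to 1 and lower 0 to 1, and with 1 set left out 0 to 1 and 0. Over all genes tested, 423 were called higher and 92 lower. These became 645 and 315 with the replicate block, 707 and 192 with DESeq2, 48 lower at an adjusted p under 0.05 and 210 lower with no fold-change limit. With 1 library left out they ranged from 75 to 702 higher and 8 to 305 lower, and with 1 set left out from 0 to 670 and 0 to 229. Without Set 4 edgeR called 0 higher and 0 lower, where 1011 genes had an unadjusted p under 0.05. The calls without Set 3 were 1 higher and 0 lower, and 1101 such genes. In the wider list the calls were 0 higher at an adjusted p under 0.05, and 2 lower with the replicate block and with DESeq2. With 1 library left out they were 0 to 1 higher and 0 to 2 lower, and with 1 set left out 0 to 2 higher and 0 to 2 lower. With a pseudocount of 5 the log2 ratio of Has1 in Set 1 was -0.55 in place of -1.46.

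Signs turned in genes that were not called in any of these fits. Without Control replicate 3, and without Set 3 with or without the block, Has3 was at 0.02 and 0.07 (-0.26 at the lowest, without Control replicate 1). Without Control replicate 1, and without Set 1 with or without the block, Hyal2 was at 0.05 and 0.02 (-0.15 at the lowest). Ugp2 was at -0.00 with library totals, -0.11 without Control replicate 1 and -0.06 without Notch3IC replicate 3 (0.16 at the highest). Hmmr was at -0.00 to -0.04 with the block, DESeq2 (-0.02), RLE (-0.02), upper-quartile, library totals (-0.04) or no filter, at -0.11 without Notch3IC replicate 1, -0.08 without Control replicate 2, -0.09 and -0.08 without Set 1 and -0.01 and -0.02 without Set 2 (0.06 at the highest). Msn was at -0.18 without Notch3IC replicate 1 and at most 0.42. The cause was not tested. The block changed no call among the 8 genes, and past the threshold on p alone it added Cd44 and Tnfaip6. Genes at counts as low as those of Has1 and Hyal1 allow only large differences to be seen.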
